A study of Mus musculus with 4 samples.

Results

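The imprinted long noncoding RNA loci Meg3 and Kcnq1ot1 were examined for contacts of eIF4A2 in mouse embryonic stem cells. Members were chosen by position alone: a peak counted when its midpoint lay in the plus-strand window of the Dlk1-Dio3 domain on chromosome 12 (110680000 to 111530000, build mm9) or in the minus-strand window of Kcnq1ot1 on chromosome 7 (150396000 to 150484000). Of the 47777 peaks in the deposited list, 19 were members. All 19 lay in the Dlk1-Dio3 window, 7 of them in the part of it that holds Meg3 (110778000 to 110811000), and the Kcnq1ot1 window held 0.

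The cells were J1 embryonic stem cells of strain 129S4/SvJae, grown without feeder cells in serum and leukemia inhibitory factor and crosslinked with ultraviolet light. In eCLIP, an antibody recovers a protein together with the RNA that the light has linked to it (IP), here with anti-eIF4A2, and lysate RNA that did not pass through that recovery (input) serves as background. There were 2 IP and 2 input libraries, described as biological replicates of unaltered cells, and the question was where RNA was enriched in IP over input. The authors deposited 1 peak list for all 4 libraries, with 1 log2 fold of IP over input per peak and no value per library, so the replicate spread, the error of each fold and the depth are unknown. No test could therefore be made of any peak, and the 95% intervals below reflect counting error alone.

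eIF4A2 is an RNA helicase of the DEAD-box class, related to the translation initiation factor eIF4A1, which unwinds the 5′ ends of messenger RNAs. Of an imprinted gene only the maternal or only the paternal copy is transcribed. In the Dlk1-Dio3 domain the noncoding RNAs Meg3, Rian and Mirg are read in the same direction from the maternal chromosome, while the protein-coding genes Dlk1, Rtl1 and Dio3 are expressed from the paternal one. Rian hosts small nucleolar RNAs and Mirg hosts microRNAs, and Meg3 levels differ between pluripotent stem cell lines in which the domain is active or silenced. Kcnq1ot1 is a paternally expressed antisense RNA that starts within the Kcnq1 gene and silences neighbouring genes on the same chromosome. The list does not separate the parental copies. In the RefSeq gene table (GRCm38) the order along chromosome 12 is Dlk1, Meg3, Rtl1, Rian, Mirg and Dio3, which places Dlk1 before and Rian and Mirg after Meg3. That table is of another build, so it was used for this order only. Peaks after Meg3 were not assigned to Rian, Mirg or Dio3, and their position in exons or introns was not analysed here.

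The Dlk1-Dio3 window held eIF4A2 peaks on the strand of the noncoding RNAs and of Dlk1, and none on the other strand. The strand alone thus does not assign a peak to a noncoding RNA. All 19 peaks lay on the plus strand, and the minus strand, from which Rtl1 is read, held 0. Over the 850 kb of the window this came to 22.4 peaks per Mb (exact Poisson interval 13.5 to 34.9), against 8.14 per Mb for the whole plus strand of chromosome 12. Of 6174 windows of 850 kb laid end to end on both strands of all chromosomes other than Y and the mitochondrial one, 834 (13.5%) held as many peaks or more. Within chromosome 12, plus strand, 13 of 141 such windows (9.22%) did. Among windows with any peak the shares were higher, 23.3% of 3582 on all chromosomes and 15.3% of 85 on chromosome 12, plus strand. The count of the domain was thus above that of most windows, though not among the highest, since the fullest window held 276. These shares describe stretches of chromosome with and without transcribed genes. In a bulk lysate, fewer cells that contain an RNA and less of it per cell cannot be told apart.

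Enrichment in the domain was mostly modest. The 19 folds ran from 1.01 to 3.33 on the log2 scale with a median of 1.41 (interquartile range 1.13 to 1.76), a fold of 2.66. The median of the whole list was 1.65 (interquartile range 1.29 to 2.07), a fold of 3.15, and 13 of the 19 domain peaks lay below it. All folds exceed a log2 value of 1, where the list begins. Of the 19 peaks, 4 (21.1%, exact binomial interval 6.05 to 45.6%) stood at 4-fold or more, a log2 value of 2, as did 28.3% of all peaks. Only 1 (5.26%, interval 0.133 to 26.0%) stood at 8-fold or more, a log2 value of 3, as did 4.03% of all peaks. Both intervals include the share of the list, so no difference in the share of strong peaks was detectable with 19 peaks. These and the other intervals given here treat peaks as independent, although peaks on the same transcript share their RNA.

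**Figure D1:**
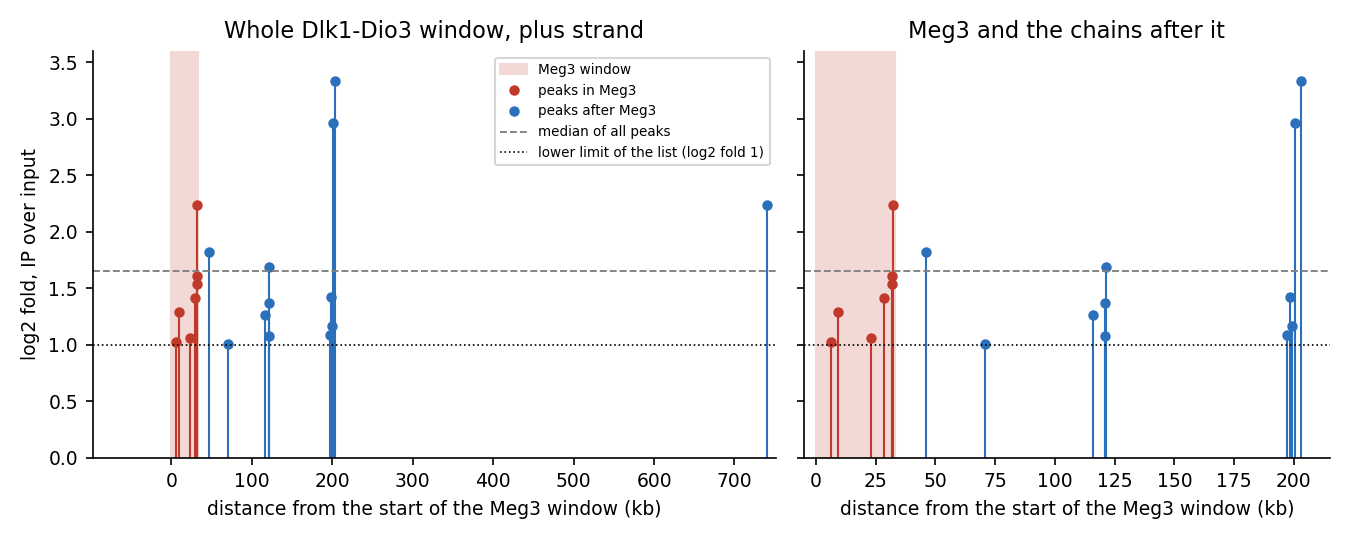
Enrichment (log2 fold, IP over input) of the 19 plus-strand peaks, shown as points with stems, against distance in kb from the start of the Meg3 window, over the whole Dlk1-Dio3 window (left) and enlarged around Meg3 and the peaks after it (right). The shaded band is the Meg3 window, the dashed line the median of all peaks (1.65) and the dotted line the lower limit of the list; no error is known for any point. The highest values, 2.96 and 3.33, belong to neighbouring peaks near 200.6 and 203 kb, and the part before Meg3 is empty.

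The part of the window before Meg3, which holds Dlk1, had no peak on either strand. Dlk1 encodes a transmembrane protein of the Notch ligand family that restrains differentiation. This part is 98 kb long, and a count of 0 allows up to 3 peaks, or 30.6 per Mb, by the rule of 3 for an upper limit alone. The exact Poisson interval, which is set for both sides, ended at 37.6 per Mb. Both are well above the chromosome mean of 8.14 per Mb, at which 0.798 peaks would fall in this part. A count of 0 is thus uninformative about Dlk1 RNA. The gap is longer than these 98 kb: the plus-strand peak preceding the first in Meg3 ended at 110236921, 443 kb before the domain window and 547 kb before that first peak.

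The Meg3 window carried 7 peaks, spread over 26.1 kb of its 33 kb, with 4 of them in the last 5 kb. Its limits come from the selection rule and were not checked against an mm9 annotation, and narrowing it by 5 kb on each side left 3 peaks. They came to 212 peaks per Mb (exact Poisson interval 85.3 to 437). Of 159504 windows of 33 kb on both strands, 1383 (0.867%) held 7 or more, and among the 16480 windows with any peak 8.39% did. The peaks covered 347 bases, or 1.05% of the window.

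Along the plus strand the first pair of Meg3 peaks had low folds. The first, at 110784177 to 110784239, was 6.21 kb into the window, 63 bases wide, with a log2 fold of 1.02 (2.03-fold). The second, at 110787142 to 110787213, was 72 bases wide with a log2 fold of 1.29 (2.44-fold). After a gap of 13.8 kb the next peak, at 110800992 to 110801021, was 30 bases wide and had a log2 fold of 1.06 (2.08-fold). The first peak and the one after the gap were thus close to the lower limit of the list, at percentiles 1.52 and 4.83 of all folds.

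The other 4 peaks of Meg3 lay in the last 5 kb of the window and had higher folds than the 3 before them. One at 110806609 to 110806646 was 38 bases wide with a log2 fold of 1.41 (2.66-fold). Then came a pair that touched end to end. The peak at 110809753 to 110809814 had a log2 fold of 1.61 (3.06-fold), and that at 110809815 to 110809881 had 1.54 (2.90-fold). The last, at 110810223 to 110810237, was 15 bases wide and had the highest fold of the locus, a log2 value of 2.24 (4.72-fold). It was the 1 peak of 7 at 4-fold or more (14.3%, exact interval 0.361 to 57.9%, against 28.3% of the list), and the only Meg3 peak above the list's median. No error is known for any of these folds, so whether the folds in the last 5 kb differ from those before them was not tested.

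The Meg3 peaks were wider than is usual in the list. Their median width was 62 bases (range 15 to 72), against 32 bases over all peaks, and 4 of the 7 were 62 bases or wider. At those widths a peak stands at percentile 89.1 to 93.5 of the list. The last peak, with the highest fold, was the narrowest of the 7.

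**Figure D2:**
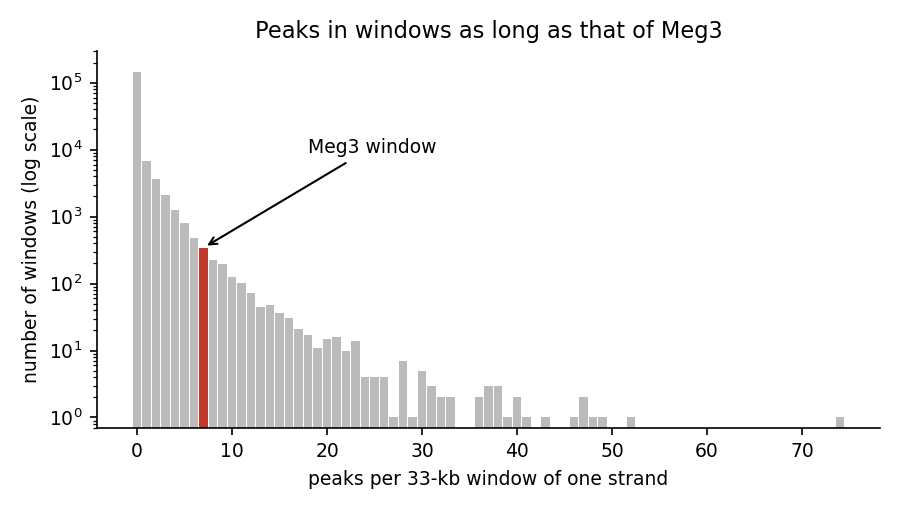
Number of 33-kb windows of one strand (vertical axis, log scale) by the number of peaks they held (horizontal axis), over all chromosomes other than Y and the mitochondrial one. The bar for 7 peaks, the count of Meg3, is coloured; 89.7% of windows held no peak, and 0.867% held 7 or more.

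The part after Meg3, which holds Rian and Mirg, carried 12 peaks in 719 kb, or 16.7 per Mb (exact Poisson interval 8.62 to 29.2). Their log2 folds ran from 1.01 to 3.33 with a median of 1.4, and 7 of the 12 were below the list's median. Joined at gaps of up to 10 kb, they formed 2 chains of 4 and 5 peaks and 3 peaks that stood alone.

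The first of the lone peaks lay 13.8 kb after the last Meg3 peak, at 110824067 to 110824076, which is 10 bases wide, with a log2 fold of 1.82 (3.54-fold). It was the nearest peak outside the Meg3 window. The next, at 110848789 to 110848829, had a log2 fold of 1.01 (2.01-fold), the lowest of the domain. Neither had a neighbour within 10 kb.

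The first chain, from 110894074 to 110899340 (5.27 kb), held 4 peaks with log2 folds of 1.26, 1.08, 1.37 and 1.69 in order along the strand. Its widest peak, at 110898974 to 110899103, spanned 130 bases, the most in the domain and at percentile 99.6 of all widths. A peak of 4 bases, at 110898956 to 110898959, lay 14 bases before it. Its last peak, at 110899308 to 110899340, was the 1 peak of this chain above the list's median (3.22-fold).

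The second chain held the strongest peaks of the domain. It ran from 110975117 to 110980975 (5.86 kb) and held 5 peaks. The first 3, starting at 110975117, 110976494 and 110977089, had log2 folds of 1.09, 1.42 and 1.17. The fourth, at 110978607 to 110978683, was 77 bases wide with a log2 fold of 2.96 (7.79-fold), at percentile 95.8 of the list. The last, at 110980955 to 110980975, was 21 bases wide with a log2 fold of 3.33 (10-fold), at percentile 98.2, and was the 1 domain peak at 8-fold or more. As in the Meg3 window, the last peak of the chain along the strand had its highest fold, and the same held in the chain of 4. With 3 sets of peaks and no error on any fold, this is a description only.

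The last peak of the domain stood apart near the far end of the window. It lay at 111518552 to 111518586, 538 kb after the peak before it, with 35 bases and a log2 fold of 2.24 (4.72-fold). The next plus-strand peak, at 111685669 to 111685691, was 156 kb beyond the window and had a log2 fold of 2.11. Without this lone peak the domain's peaks lay within the first 203 kb from the start of Meg3.

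**Figure D3:**
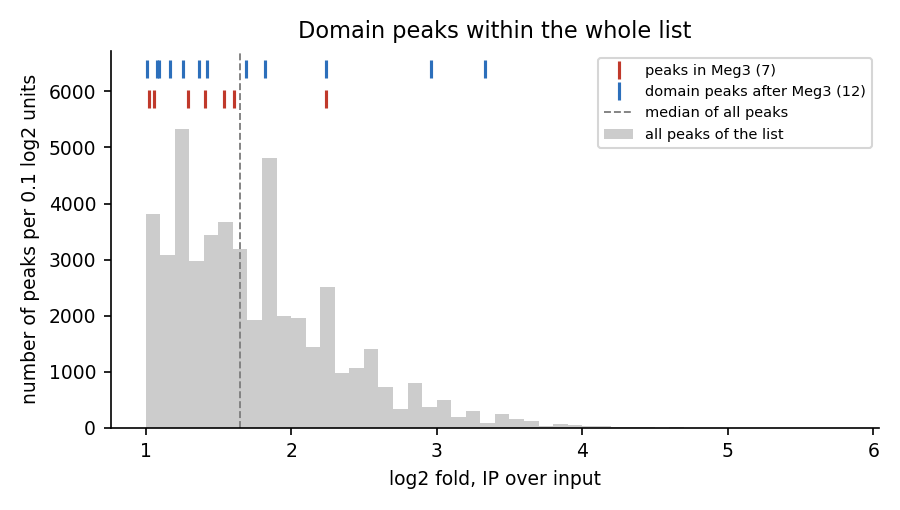
Distribution of log2 fold over all 47777 peaks (grey bars, number of peaks per 0.1 log2 units), with the 7 Meg3 peaks (red ticks) and the 12 domain peaks after Meg3 (blue ticks) marked above. The dashed line is the list's median of 1.65; 6 of the 7 red and 7 of the 12 blue ticks lie to its left.

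The fold values of the domain also differ in how simple a ratio they are. After 1 constant (0.24 on the log2 scale) was subtracted, 99.96% of the list's folds equalled a whole number divided by another of at most 200, within a relative tolerance of 2e-09, and this held for all 19 domain peaks. The median denominator in lowest terms was 35 in Meg3 and 10.5 in the part after it, against 4 over the list. The first Meg3 peak had a ratio of 139 to 81, the second 126 to 61, and the touching pair had 101 to 39 and 86 to 35. The peak after the gap was 30 to 17, the one following it 9 to 4 and the last, narrow peak 4 to 1. That value, the highest fold of Meg3, was shared by 2006 peaks of the list. Denominators of 30 or more, a limit chosen after the values were seen, occurred at 4 of 7 Meg3 peaks and at 5.41% of all peaks. The constant was set by assuming a ratio for the commonest fold, and another assumed ratio could change the denominators given here and below. The list does not state whether the folds are ratios of read counts. The denominators were therefore not read as numbers of input reads.

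After Meg3, the largest denominator, 57, occurred in the chain of 4 peaks. The widest peak had 125 to 57 and the first of its chain 65 to 32. The rest of that chain had 25 to 14 and 30 to 11. The 2 strongest peaks of the domain had 33 to 5 (7.79-fold) and 17 to 2 (10-fold). The weaker peaks of their chain, with log2 folds of 1.09, 1.42 and 1.17, had 9 to 5, 34 to 15 and 21 to 11. The lone peaks before the chains had 3 to 1 and 17 to 10, and the distant last peak had 4 to 1, a value shared by 2006 peaks of the list. The values 33 to 5 and 17 to 2 were shared by 11 and 50 peaks. The list gives no error for any of them.

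Kcnq1ot1 had no peak on its own strand, and the plus strand of the same window, the strand of Kcnq1, had none. Over 88 kb a count of 0 allows up to 3 peaks, or 34.1 per Mb, by the rule of 3 for an upper limit alone. The exact Poisson interval, which is set for both sides, ended at 41.9 per Mb. At the mean of the minus strand of chromosome 7, 10.6 per Mb, the window would hold 0.931 peaks. Of 1732 windows of 88 kb on that strand, 1397 (80.7%) held none, as did 81.5% of those on all chromosomes. A count of 0 was thus the usual outcome for a window of this length placed without regard to genes, and lower or absent binding was not detectable. These windows include stretches without transcribed genes. Among the 335 windows of that strand with any peak, the median count was 3. The list begins at 2-fold, so weaker enrichment would not appear in it, and whether Kcnq1ot1 RNA was present in these libraries cannot be read from it.

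The empty stretch around Kcnq1ot1 was longer than the window. The nearest minus-strand peaks lay at 150225547 to 150225552, 170 kb below it, with 6 bases and a log2 fold of 2.82, and at 150687966 to 150687994, 204 kb above it, with a log2 fold of 1.60. On the plus strand the nearest peak was closer, at 150380130 to 150380170, 15.8 kb below the window, with a log2 fold of 1.82 (3.54-fold). In the 500 kb above the window the minus strand held 19 peaks, and in the 500 kb below it 3.

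**Figure D4:**
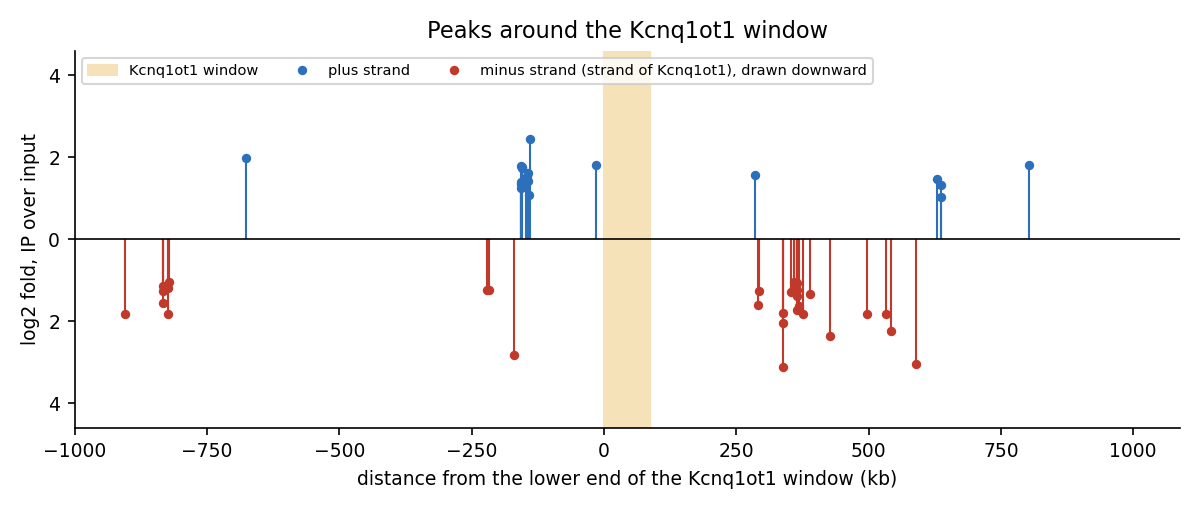
Log2 fold of IP over input for peaks near Kcnq1ot1 against distance in kb from the lower end of its window, with plus-strand peaks drawn upward and minus-strand peaks, on the strand of Kcnq1ot1, drawn downward. The shaded window is empty on both strands, the nearest peak being a plus-strand peak 15.8 kb below it; no error is known for any point.

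The 2 loci thus differed in count, 7 peaks in the 33 kb of Meg3 and 0 in the 88 kb of Kcnq1ot1. The exact Poisson interval for Meg3 began at 85.3 peaks per Mb, above 41.9 per Mb, where the same kind of interval for Kcnq1ot1 ended. Both limits treat peaks as independent, although peaks on one transcript share their RNA. Peaks were clustered along the chromosomes: 89.7% of 33-kb windows held 0 and the fullest held 74. The limits are therefore too narrow, and the space between them is no test of a difference. With the Meg3 window narrowed by 5 kb on each side, only 3 peaks remained. The amounts of the 2 RNAs in the input are unknown. Binding per molecule and RNA abundance cannot be told apart in this comparison.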

How the data were processed

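eCLIP was done on 2 IP and 2 input libraries. Per the submitters' processing notes, the authors used cutadapt 1.18, STAR 2.6.1b and build mm9; peak calling, significance filters and replicate handling were not stated there. The authors deposited log2 folds of IP over input, 1 per peak; the scale was read from the values, none of which is at or below 1. Labelled stem cell identity could not be checked, since no mm9 annotation or sequence was used here.

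Starts were changed to count from 1. Peaks were assigned by midpoint and strand, and counted beside end-to-end windows of equal length, each running from the chromosome start to its last peak. Ratios used the commonest fold as 2 to 1, which was an assumption. Every member peak is described, per the naming rule. Members and lists were chosen with earlier results of these data known. Window and ratio procedures were tested on simulated data. The ratio test was given the constant, so the step that sets the constant was not tested. Its simulated denominators were also smaller than the largest found here, and its check on random values allowed only smaller ones. Alternatives were window limits, overlap, strand, fold, merging and width. Python 3.11.15, numpy 2.4.6, scipy 1.17.1, pandas 2.3.3 and matplotlib 3.10.9 were used.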

Additional observations from a re-analysis of the deposited data

How the results depend on the processing

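Of 32 alternative values, 5 could only return the 0 of Kcnq1ot1 (fold limits, merging, minimum width and the narrowed window). Of the other 27, 20 stayed within the set range (1.5 times for counts, the exact interval for medians). For the Meg3 median that interval, 1.02 to 2.24, was the full range of its 7 peaks. Medians of subsets or merges of these peaks therefore had to stay within it, and they are counted among the 20. So are the domain medians with the window widened or narrowed, which rest on the same 19 peaks. With the window narrowed the Meg3 median fell from 1.41 to 1.06. The domain count of 19 became 4 at a log2 fold of at least 2, 1 at a log2 fold of at least 3, and 0 on the opposite strand. The Meg3 count of 7 became 1, 0 and 0 under the same alternatives, and 3 with the window narrowed by 5 kb on each side, since 4 of its peaks lie near the window's end. Merging peaks within 50 bases left 17 and 6 peaks, and a minimum width of 20 bases left 16 and 6. For Kcnq1ot1 the 3 alternatives that could have added peaks (any overlap, the window widened by 10 kb, the opposite strand) also gave 0. Medians on the opposite strand, and all medians for Kcnq1ot1, could not be had, as no peaks were there. No paired analysis was possible because peaks carry a single value over all libraries, and no replicate could be left out. Depth is unknown.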

Other observations

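Peaks were uneven around the domain. In the 500 kb below the Dlk1-Dio3 window the plus strand held 5 peaks and the minus strand 0. In the 500 kb above it there were 63 on the plus strand (median log2 fold 1.65) and 16 on the minus strand (median 1.26). The genes under these peaks were not analysed here.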
